A study of Homo sapiens with 6 samples.

Results

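Kinetochore and spindle checkpoint genes were examined in MV4-11 cells after inhibition of the WNK kinases. The members were every gene whose symbol was CENP followed only by letters, together with a list of 25 further kinetochore, checkpoint and chromosomal passenger genes. The pattern matched 21 genes, so that 46 of the 20348 genes in the table were taken. Of these, 17 coded for proteins that stay at the centromere throughout the cell cycle (constitutive centromere genes) and 27 for proteins of the outer kinetochore, the checkpoint or the passenger complex. The other 2 carried a CENP symbol without belonging to either class: CENPJ, a centriole assembly protein, and CENPV. MV4-11 is an established human AML line with a KMT2A-AFF1 fusion and an internal tandem duplication of FLT3. The cells were either left untreated (Control, n = 3) or given WNK463, a small-molecule inhibitor of the WNK family, at 1 µM for 48 h (WNK463, n = 3), and the mRNA was sequenced. The labels name no vehicle for the Control samples. They do not say whether the samples came from separate cultures, so the p-values measure the spread between these samples, which may be technical.

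The kinetochore is the protein structure that joins each chromatid to spindle microtubules. It is built on nucleosomes that carry the histone H3 variant CENP-A, on which a network of inner proteins (the CENP-C, CENP-HIKM, CENP-LN, CENP-OPQU and CENP-TWSX groups) sits throughout the cell cycle. In mitosis this network recruits the KNL1, MIS12 and NDC80 complexes, which bind microtubules and serve as the platform for the BUB and MAD checkpoint proteins. The checkpoint holds back the anaphase-promoting complex until every kinetochore is attached, while Aurora B and its passenger partners release faulty attachments. Many of these genes are transcribed mainly in S phase or in G2 and mitosis.

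The deposited counts summed to between 14915745 and 17411780 per sample. The labelled cell type was checked against 10 myeloid leukemia markers, all of which had counts in every sample. Their summed level was 2568 to 2756 TPM in Control and 1614 to 1658 TPM in WNK463 samples. In that sum LYZ alone went from 1697 to 417.6 TPM on average, whereas by the test given below 4 of the 10 were lower and 5 were higher. MPO was at only 0.705, 1.20 and 0.862 TPM in the WNK463 samples. Of 12 markers of other cells, 10 were under 1 TPM in every sample and 5 were at 0. KRT18 (log2 fold change -0.68) and PECAM1 (0.80) were the exceptions. The summed level of the 12 ran from 53.2 to 55.0 TPM in Control and from 86.9 to 92.1 TPM in WNK463 samples. Most of it was PECAM1, at 40.9 TPM on average in Control and 79.8 TPM in WNK463 samples, while KRT18 was at 13.3 and 9.47 TPM. The higher sum is therefore that of 1 gene. The part of these markers in the results was not tested. Control replicate 1 was the lowest Control sample for 32 of the 46 members, so values without it are given beside the calls it changed or moved most. For how many of all genes tested it was the lowest was not counted, so this is not read as particular to the members.

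Most kinetochore genes were lower after WNK463, but not all of them moved together. Of the 46 members, all of which passed the filter on low counts, 30 were lower, 7 were higher and 9 did not pass the threshold (edgeR's quasi-likelihood test, Benjamini-Hochberg adjusted p below 0.05). Among the 11973 genes tested, 35.3% were lower and 35.5% were higher, against 65.2% and 15.2% of the members. A fall of at least 2-fold was found for 7 members, against a background of 5.55%, and none rose 2-fold (background 9.62%). The median log2 fold change was -0.53 over the members and 0.02 over all genes tested. For 30 members every WNK463 sample lay below every Control sample (36.4% of all genes tested did so) and for 4 every WNK463 sample lay above (37.1%). In bulk RNA, fewer cells in a given cell cycle phase and less RNA per cell cannot be told apart.

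**Figure D1:**
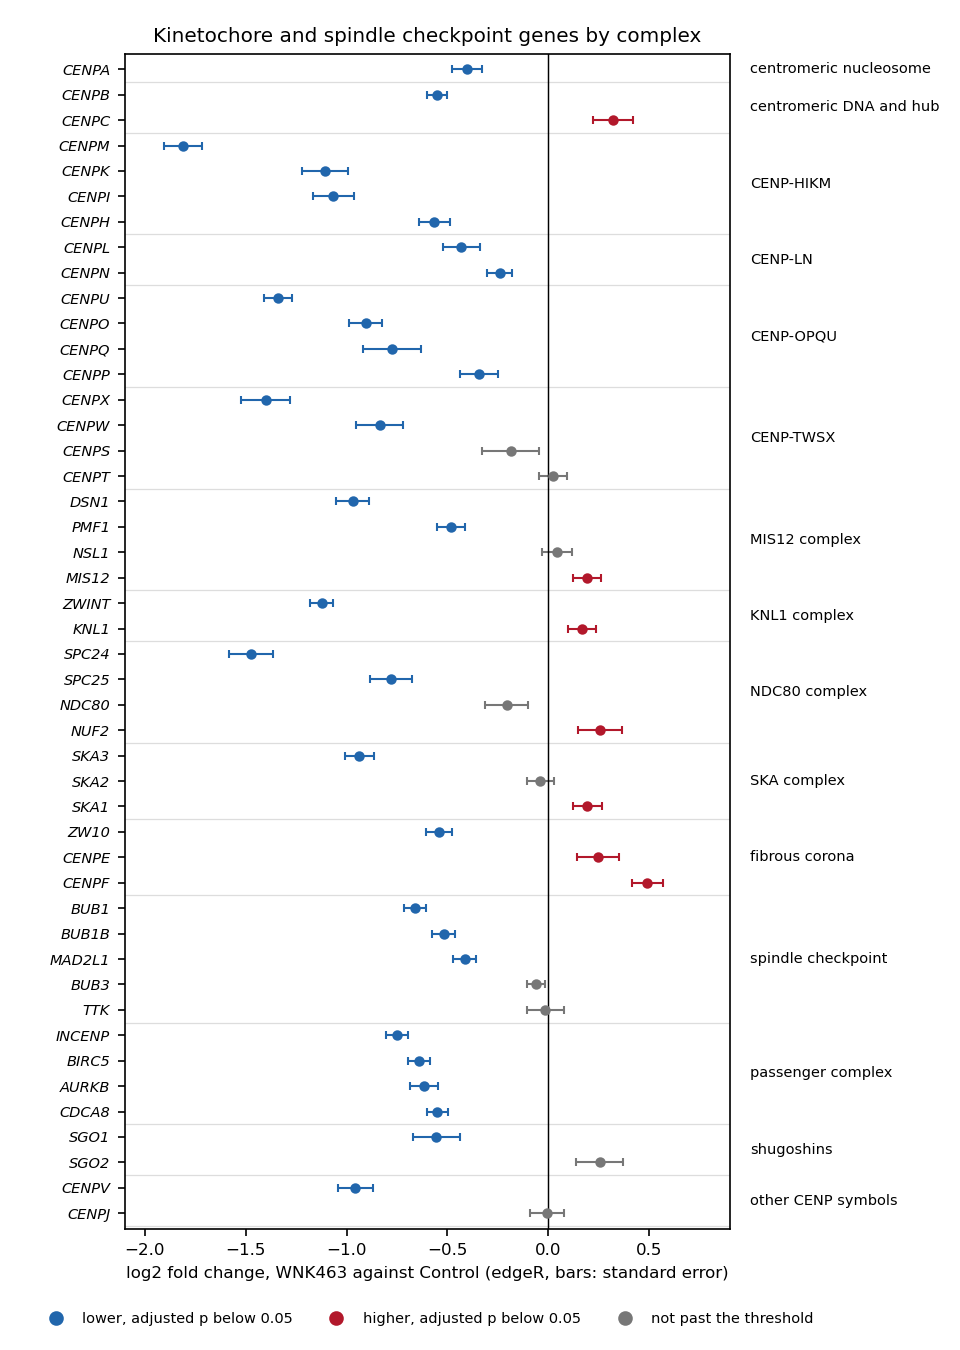
Log2 fold change (WNK463 against Control, edgeR, horizontal axis) of the 46 genes, grouped by complex, with bars for the standard error and colours for the call at adjusted p below 0.05. The 4 genes of CENP-HIKM and the 4 genes of the passenger complex all lie below 0, whereas the NDC80 complex runs from -1.47 for SPC24 to 0.26 for NUF2.

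The constitutive centromere genes fell almost throughout. Of the 17, 14 were lower (82.4%, against 35.3% of all genes tested), 1 was higher (5.88%, against 35.5%) and 2 did not pass. A fall of at least 2-fold was found for 5 (background 5.55%). The median log2 fold change over the 17 genes was -0.56. Their summed level was 667.5 ± 27.8 TPM in Control and 473.5 ± 9.02 TPM in WNK463 samples (SD, n = 3 each), TPM being scaled for gene length. By read counts scaled to library size (CPM, with factors from the trimmed mean of M-values, TMM), CENPA, the histone variant that marks the centromere, was at 38.7, 43.3 and 43.7 in Control replicates 1 to 3 and at 32.3, 32.7 and 30.0 in WNK463 replicates 1 to 3. The groups did not overlap, and CENPA fell by 24.4% (log2 fold change -0.40 ± 0.07, SE, adjusted p = 9.23e-05). CENPA lies at chr2:26764289-26801067 (GRCh38, plus strand) and shares part of this interval, on the same strand, with SLC35F6, which itself was lower (log2 fold change -1.12). How reads in the shared part were assigned was not given in the sources used here. CENPB, which binds a short motif in alpha satellite DNA, fell with a log2 fold change of -0.55 ± 0.05.

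CENP-HIKM, the group of 4 inner subunits that stabilises the network, had the lowest median of the inner groups, -1.09, and each of its genes fell. CENPM (chr22:41938721-41947164, minus strand), a subunit related to small GTPases that does not bind nucleotide, showed the largest fall of all 46 members. Its level was 37.9, 31.5 and 36.0 CPM in the Control samples and 9.54, 10.4 and 10.1 CPM in the WNK463 samples. All WNK463 samples lay far below the lowest Control sample, and CENPM fell by 71.5% (log2 fold change -1.81 ± 0.10, adjusted p = 1.69e-11). CENPK was at 18.5, 23.1 and 22.8 CPM in Control and at 9.12, 10.9 and 9.77 CPM in WNK463 samples. Its groups were apart, with a log2 fold change of -1.11 ± 0.11 (adjusted p = 9.55e-08). CENPI was at 23.8, 20.4 and 21.7 CPM in Control and at 9.90, 11.2 and 10.4 CPM in WNK463 samples. It fell by 52.2%, an amount close to that of CENPK (log2 fold change -1.06 ± 0.10, adjusted p = 3.42e-08). CENPH fell less, with a log2 fold change of -0.56 ± 0.08 (adjusted p = 4.58e-06). The ratio of CENPM to CENPK in TPM was 3.04, 2.29 and 2.53 in Control and 1.59, 1.39 and 1.52 in WNK463 samples, while that of CENPH to CENPK was 2.03 ± 0.064 and 2.80 ± 0.398 (SD, n = 3 each). The group therefore fell as a whole but in unequal measure; these ratios are within a library and do not depend on scaling between libraries.

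The CENP-OPQU genes, whose products assist kinetochore assembly and recruit the kinase PLK1, also all fell, with a median of -0.84. CENPU, the PLK1-binding subunit, was at 74.2, 85.5 and 82.2 CPM in Control and at 31.2, 30.6 and 33.8 CPM in WNK463 samples. It fell by 60.5%, with no overlap (log2 fold change -1.34 ± 0.07, adjusted p = 1.32e-11). CENPO was at 45.3, 49.5 and 46.2 CPM in Control and at 26.8, 22.2 and 26.2 CPM in WNK463 samples. Its groups were apart as well, with a log2 fold change of -0.91 ± 0.08 (adjusted p = 1.39e-08). CENPQ fell with a log2 fold change of -0.78 ± 0.14 and CENPP with one of -0.34 ± 0.09. CENPL and CENPN, which form the CENP-LN pair and of which CENPN reads the CENP-A nucleosome, had the smallest falls of a whole group, -0.43 ± 0.09 and -0.24 ± 0.06. The calls for CENPL, CENPN and CENPP were lost under some alternatives.

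CENP-TWSX, a histone-fold assembly, divided into genes that fell and genes that did not pass. CENPX was at 17.6, 15.1 and 16.8 CPM in Control and at 5.80, 5.81 and 7.15 CPM in WNK463 samples. It fell by 62.2% with no overlap (log2 fold change -1.40 ± 0.12, adjusted p = 1.41e-08). CENPW, the partner of CENPT, fell with a log2 fold change of -0.83 ± 0.12. CENPT itself, which recruits the NDC80 complex, had a log2 fold change of 0.02 ± 0.07 (adjusted p = 0.775), with 40.4, 40.7 and 38.2 CPM in Control and 40.7, 42.8 and 37.5 CPM in WNK463 samples. CENPS, the partner of CENPX, had one of -0.19 ± 0.14 (adjusted p = 0.252). The readthrough gene CENPS-CORT overlaps CENPS on the same strand and had 11 to 34 counts in Control and 0 to 11 in WNK463 samples, so counts of CENPS could have been divided between the 2 genes.

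CENPC, the hub that reads the CENP-A nucleosome and binds the MIS12 complex, was the 1 constitutive gene that was higher. It was at 27.2, 36.4 and 40.1 CPM in Control and at 42.9, 42.2 and 44.3 CPM in WNK463 samples. The groups did not overlap (log2 fold change 0.32 ± 0.10, adjusted p = 0.00878), but Control replicate 1 was far below the other two, and without it the log2 fold change was 0.17 (adjusted p = 0.0465). With offsets for GC content and transcript length, the log2 fold change of CENPC was 0.07 (adjusted p = 0.408), so the call was lost.

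In the outer kinetochore and the checkpoint, falls and rises stood side by side, often within 1 complex. Of the 27 genes, 15 were lower (55.6%, against 35.3% of all genes tested), 6 were higher (22.2%, against 35.5%) and 6 did not pass. Only 2 fell at least 2-fold, SPC24 and ZWINT (background 5.55%). The median log2 fold change over the 27 genes was -0.48. Their summed level was 1902 ± 105 TPM in Control and 1744 ± 25.2 TPM in WNK463 samples (SD, n = 3 each). Whether this class differed from the constitutive genes was not tested. With a difference of 1.73 between its highest and lowest log2 fold change, the NDC80 complex had the widest range of the complexes, and the passenger complex, with 4 genes within 0.20, had the narrowest of those with more than 2 genes.

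The NDC80 complex is a rod in which the NDC80 and NUF2 subunits bind the microtubule and the SPC24 and SPC25 subunits bind the inner kinetochore. Both genes of the inner end fell, while of the microtubule-binding end NUF2 was higher and NDC80 did not pass, calls that changed with the settings given here. SPC24 was at 20.3, 21.3 and 20.7 CPM in Control and at 7.85, 6.57 and 8.04 CPM in WNK463 samples. It fell by 64.0%, the largest fall of the outer class (log2 fold change -1.47 ± 0.11, adjusted p = 1.23e-09). SPC25 was at 20.8, 20.8 and 18.8 CPM in Control and at 10.5, 13.1 and 11.5 CPM in WNK463 samples. Its groups were apart too (log2 fold change -0.78 ± 0.10, adjusted p = 3.05e-06). NUF2 was at 25.1, 35.3 and 34.5 CPM in Control and at 35.6, 42.9 and 34.4 CPM in WNK463 samples. The groups of NUF2 overlapped and its rise was near the threshold (log2 fold change 0.26 ± 0.11, adjusted p = 0.0462), and without Control replicate 1 the value was 0.11 (adjusted p = 0.284). NDC80 had 23.3, 30.6 and 34.2 CPM in Control and 25.6, 25.6 and 25.2 CPM in WNK463 samples, which did not pass (log2 fold change -0.21 ± 0.11, adjusted p = 0.0951). NDC80 was lower without Control replicate 1 (-0.36, adjusted p = 0.000582), with offsets for GC content and transcript length (-0.31, adjusted p = 0.0031) and without the filter on low counts (-0.22, adjusted p = 0.0412). By TPM, the ratio of SPC24 to NUF2 was 1.08, 0.670 and 0.798 in Control samples and 0.306, 0.191 and 0.239 in WNK463 samples. The ratio of SPC25 to NUF2 was 0.925 ± 0.200 and 0.444 ± 0.0248, and that of NUF2 to NDC80 was 1.20 ± 0.084 and 1.58 ± 0.132 (SD, n = 3 each). None of these ratios overlapped between groups.

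Upstream sequences of the 4 NDC80 complex genes are shown because SPC24 and SPC25, which fell under every alternative, held CCAAT, the site of the factor NF-Y, and NDC80 and NUF2 did not. The 250 bases before the RefSeq start (GRCh38.p14) are printed 5′ to 3′ on the gene's strand, with capitals for CCAAT, for the cell cycle element TTTGAA and for the E2F words listed further on, on either strand. SPC24 is at chr19:11155783-11156032 (minus strand), SPC25 at chr2:168890431-168890680 (minus), NDC80 at chr18:2571307-2571556 (plus) and NUF2 at chr1:163321704-163321953 (plus). Only the first listed RefSeq start of each gene was used. In the GENCODE annotation SPC25 and NUF2 start further upstream, at chr2:168913371 and chr1:163266576, and these starts were not searched.
SPC24: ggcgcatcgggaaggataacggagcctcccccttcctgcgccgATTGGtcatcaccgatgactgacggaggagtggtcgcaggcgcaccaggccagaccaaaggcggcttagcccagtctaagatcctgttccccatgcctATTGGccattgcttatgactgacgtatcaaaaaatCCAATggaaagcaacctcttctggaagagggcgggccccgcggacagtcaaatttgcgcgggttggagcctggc
SPC25: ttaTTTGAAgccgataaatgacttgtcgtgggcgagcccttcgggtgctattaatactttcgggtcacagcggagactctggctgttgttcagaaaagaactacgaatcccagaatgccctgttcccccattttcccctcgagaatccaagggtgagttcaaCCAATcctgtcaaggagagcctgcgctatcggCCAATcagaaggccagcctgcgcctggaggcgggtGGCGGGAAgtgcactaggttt
NDC80: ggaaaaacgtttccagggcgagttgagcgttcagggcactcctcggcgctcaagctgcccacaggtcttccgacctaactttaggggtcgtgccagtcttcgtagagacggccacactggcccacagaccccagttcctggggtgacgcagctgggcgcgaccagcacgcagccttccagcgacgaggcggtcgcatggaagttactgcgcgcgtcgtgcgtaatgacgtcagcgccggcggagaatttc
NUF2: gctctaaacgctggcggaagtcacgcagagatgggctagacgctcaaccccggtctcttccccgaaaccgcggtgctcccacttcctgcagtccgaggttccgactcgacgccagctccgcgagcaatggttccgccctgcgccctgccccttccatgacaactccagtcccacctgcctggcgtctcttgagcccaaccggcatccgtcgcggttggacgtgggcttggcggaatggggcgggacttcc
SPC24 held 3 CCAAT motifs and SPC25 held 2, with TTTGAA and GGCGGGAA besides. No searched motif lay in the 250 bases of NDC80 or NUF2. TTTGAA nevertheless spanned the start of NDC80, as it did that of SPC25, and lay at 17 to 22 bases after that of NUF2. With 4 genes this is a description of these sequences, and the complex was picked for this difference. Other complexes did not divide in this way. Of the SKA complex, SKA2, which did not pass, held CCAAT, whereas SKA3, which fell, and SKA1, which was higher, did not. Of the MIS12 complex, PMF1, which fell, and MIS12, which was higher, held it. DSN1, which fell, and NSL1, which did not pass, did not. Among all members with a promoter, CCAAT was held by 18 of 26 lower, 3 of 6 higher (CENPC, CENPF and MIS12) and 2 of 6 that did not pass.

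The KNL1, MIS12 and SKA complexes were likewise uneven. ZWINT, the partner of KNL1, was at 138.8, 141.4 and 140.9 CPM in Control and at 64.4, 68.8 and 59.8 CPM in WNK463 samples. It fell by 54.1% from nearly equal Control values (log2 fold change -1.12 ± 0.06, adjusted p = 1.05e-11). KNL1, the scaffold whose repeated motifs recruit the BUB proteins, had overlapping groups and a log2 fold change of 0.17 ± 0.07 (adjusted p = 0.042), which was 0.11 without Control replicate 1 (adjusted p = 0.154). The ratio of ZWINT to KNL1 in TPM was 8.33, 6.91 and 6.59 in Control and 2.76, 2.64 and 2.88 in WNK463 samples. In the MIS12 complex, which bridges the inner and outer layers, DSN1 was at 41.0, 42.5 and 47.0 CPM in Control and at 22.4, 24.0 and 20.2 CPM in WNK463 samples. DSN1, the subunit that Aurora B phosphorylates, fell by 49.0% (log2 fold change -0.97 ± 0.08, adjusted p = 8.23e-09). PMF1 fell with a log2 fold change of -0.48 ± 0.07, MIS12 was higher at 0.19 ± 0.07 (adjusted p = 0.0195) and NSL1 did not pass at 0.04 ± 0.07 (adjusted p = 0.601). Without Control replicate 1, MIS12 was at 0.17 (adjusted p = 0.0551). The readthrough gene PMF1-BGLAP, which overlaps PMF1 on the same strand, held 28 to 77 counts per sample.

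The SKA complex follows microtubule ends and strengthens attachment. SKA3 was at 61.9, 65.0 and 70.2 CPM in Control and at 37.0, 33.2 and 32.9 CPM in WNK463 samples. It fell by 47.7% with no overlap (log2 fold change -0.94 ± 0.07, adjusted p = 1.63e-09). SKA1 was higher at 0.19 ± 0.07 (adjusted p = 0.0193), with its groups apart, and was at 0.16 without Control replicate 1 (adjusted p = 0.0627). SKA2 had a log2 fold change of -0.04 ± 0.07 by counts (adjusted p = 0.604). In TPM, however, SKA2 was at 74.8 ± 3.12 in Control and 105.8 ± 30.2 in WNK463 samples, and limma on log2(TPM + 1) gave 0.46 (adjusted p = 0.0266). The median of all genes tested was 0.162 in that fit. With offsets for GC content and length, the count fit of SKA2 gave -0.24 (adjusted p = 0.000296), so no direction is given for it. The ratio of SKA3 to SKA1 in TPM was 1.51 ± 0.190 in Control and 0.738 ± 0.104 in WNK463 samples, with no overlap.

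**Figure D2:**
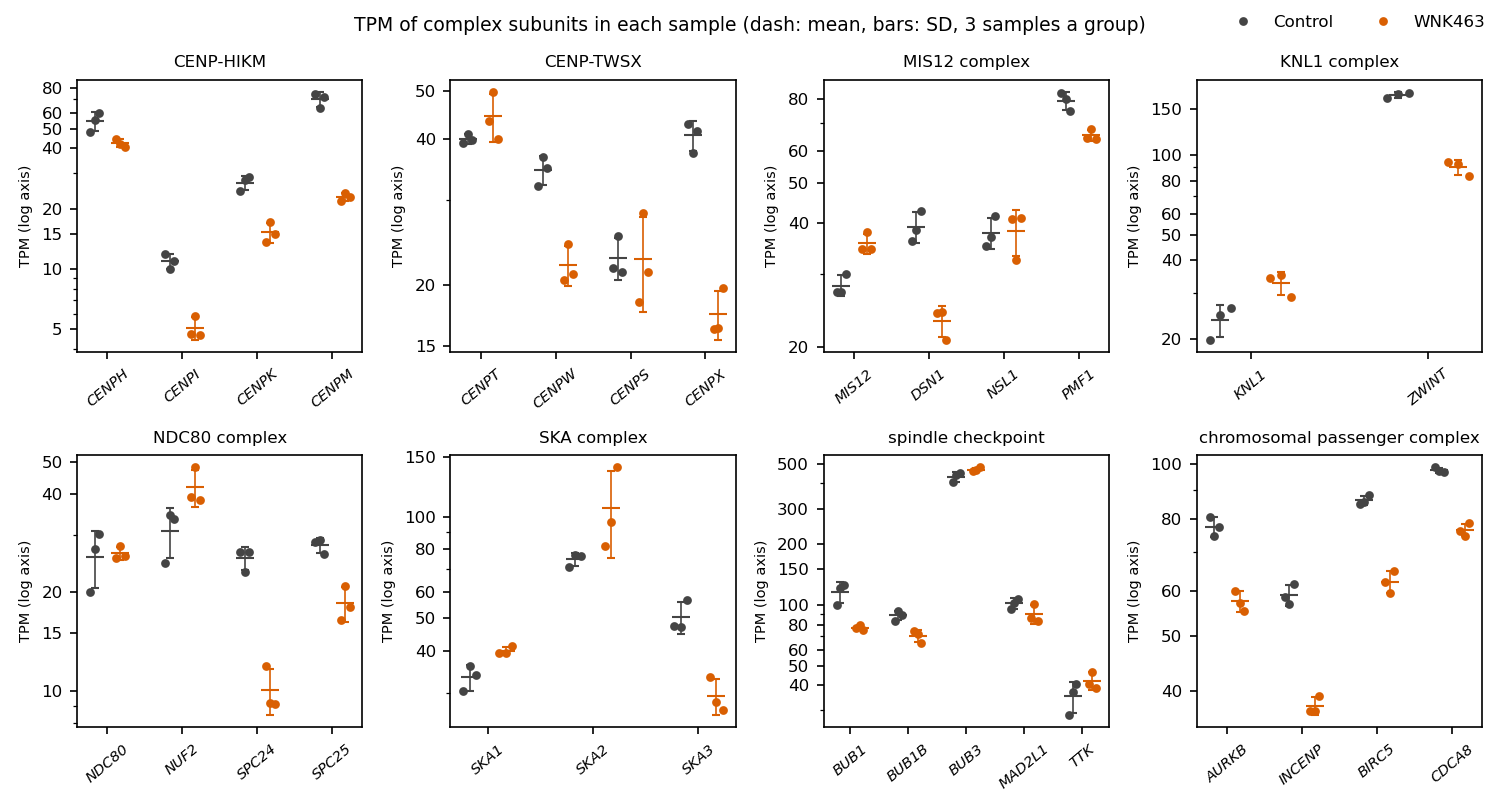
TPM (log axis) of the subunits of 8 complexes in each of the 3 Control and 3 WNK463 samples, with points for samples, dashes for means and bars for the SD. SPC24, SPC25, SKA3, ZWINT and DSN1 lie lower in all WNK463 samples, while NUF2, SKA1, KNL1 and MIS12 of the same complexes do not, and the 4 passenger genes all lie lower.

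The chromosomal passenger genes, by contrast with these complexes, all fell, by similar amounts. INCENP, the scaffold, was at 116.7, 115.6 and 124.2 CPM in Control and at 70.4, 69.3 and 72.3 CPM in WNK463 samples. Its groups were far apart relative to their spread (log2 fold change -0.75 ± 0.05, adjusted p = 8.78e-10). AURKB, the Aurora B kinase, was at 50.7, 45.1 and 47.8 CPM in Control and at 32.3, 30.7 and 30.7 CPM in WNK463 samples. It fell by 34.8% with no overlap (log2 fold change -0.62 ± 0.07, adjusted p = 3.41e-07). BIRC5, which codes for survivin, fell with a log2 fold change of -0.64 ± 0.06 and CDCA8, which codes for borealin, with one of -0.55 ± 0.05. The ratio of AURKB to INCENP in TPM was 1.32 ± 0.062 in Control and 1.53 ± 0.110 in WNK463 samples. Of the shugoshins, which protect centromeric cohesin, SGO1 fell at -0.55 ± 0.12 (adjusted p = 0.000409), and SGO2 did not pass at 0.25 ± 0.12 (adjusted p = 0.0597), or at 0.08 without Control replicate 1.

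Of the 5 checkpoint genes, 3 fell and 2 did not pass. BUB1B, which codes for BubR1 of the mitotic checkpoint complex, was at 164.7, 182.4 and 175.8 CPM in Control and at 128.8, 123.4 and 113.0 CPM in WNK463 samples. It fell by 30.1% with no overlap (log2 fold change -0.52 ± 0.06, adjusted p = 2.78e-07). BUB1, a kinase that marks centromeric histone H2A, fell at -0.66 ± 0.05, and MAD2L1, the CDC20-binding Mad2, at -0.41 ± 0.06. BUB3, which brings BUB1 and BubR1 to KNL1, had a log2 fold change of -0.06 ± 0.04 (adjusted p = 0.227). With the GC and length offsets it was called lower at -0.27 (adjusted p = 6.15e-07). By limma on log2(TPM + 1) it was called higher at 0.12 (adjusted p = 0.0495). The median of all genes tested was 0.162 in that limma fit, so BUB3 lay below it there. TTK, the Mps1 kinase that starts checkpoint signalling, had a log2 fold change of -0.01 ± 0.09 (adjusted p = 0.898), and of -0.16 without Control replicate 1 (adjusted p = 0.0322). By TPM, BUB3 was the most abundant of the 5, at 431.6 ± 23.2 in Control samples, and TTK the least, at 35.4 ± 6.19. The ratio of BUB1B to BUB3 was 0.206 ± 0.0072 in Control and 0.151 ± 0.0136 in WNK463 samples, and that of BUB1 to BUB3 was 0.268 ± 0.0177 and 0.165 ± 0.0079.

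The corona, an outer layer that expands on unattached kinetochores, held the largest rise. CENPF, a large coiled-coil protein that links the kinetochore to dynein regulators, was at 288.9, 371.9 and 392.3 CPM in Control and at 494.1, 513.9 and 472.5 CPM in WNK463 samples. Every WNK463 sample lay above every Control sample, and the rise was 40.6% (log2 fold change 0.49 ± 0.08, adjusted p = 2.05e-05). Without Control replicate 1 it was 0.36 (adjusted p = 1.92e-07). CENPE, a kinesin that carries chromosomes towards the spindle equator, was at 58.3, 81.3 and 88.1 CPM in Control and at 89.0, 98.1 and 82.7 CPM in WNK463 samples. Its groups overlapped (log2 fold change 0.25 ± 0.10, adjusted p = 0.0429), and without Control replicate 1 the value was 0.08 (adjusted p = 0.279). ZW10, of the complex that brings dynein to the corona, fell at -0.54 ± 0.06. Outside both classes, CENPV fell at -0.96 ± 0.09 (adjusted p = 2.07e-08) and CENPJ did not pass at -0.01 ± 0.08 (adjusted p = 0.939).

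Of the 6 outer genes that were higher, only CENPF kept its call under all 14 alternatives that were run. Without Control replicate 1, CENPF alone was higher and 17 outer genes were lower, NDC80 and TTK being added. The number higher was 3 without Control replicate 2, 3 without WNK463 replicate 1 and 2 without WNK463 replicate 2. It was 1 by DESeq2, again CENPF, and 2 with offsets for GC content and transcript length, CENPF and SKA1. With these offsets 19 outer genes were lower, KNL1, NDC80, SKA2 and BUB3 being added. The falls varied less: 11 of the 14 in the constitutive class (all but CENPL, CENPN and CENPP) and 14 of the 15 in the outer class (all but MAD2L1) passed under every alternative. Scaling by total counts moved the median of all tested genes from 0.02 to 0.17. By limma on log2(TPM + 1) and log2(TPM + 0.1) that median was 0.162 and 0.171. Values under these settings are read relative to this shift.

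**Figure D3:**
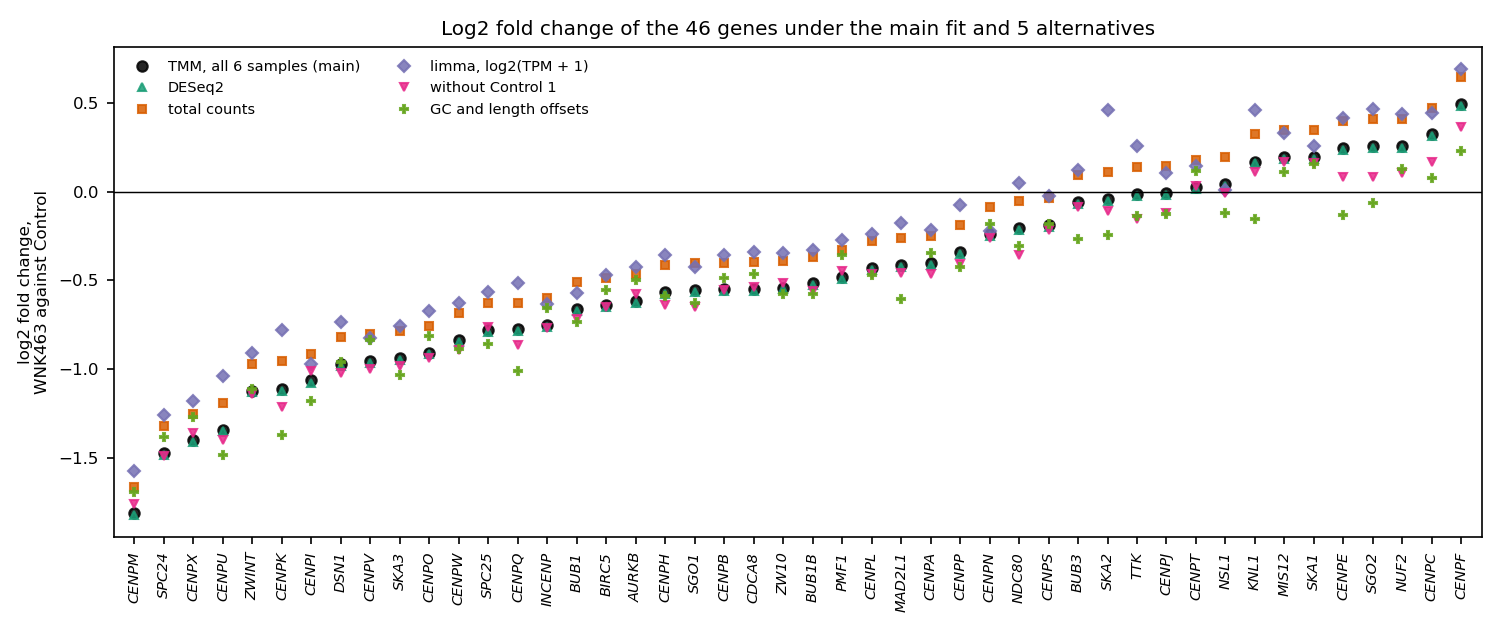
Log2 fold change (WNK463 against Control, vertical axis) of the 46 genes, ordered by the value from all 6 samples with TMM scaling (black), under 5 alternatives. The lower genes stay below 0 under each of the 5, while KNL1, CENPE, SGO2 and NSL1 cross 0 with the GC and length offsets, and total counts and TPM lie above the black points for nearly all genes.

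The direction of change varied with transcript length and base composition. The 7 higher members had a median longest transcript of 6940 bases and 38.8% GC, against 2399 bases and 45.5% GC for the 30 lower members. Across the 46 members, Spearman's rho between log2 fold change and length was 0.488, and that with GC content was -0.363. These are descriptions across genes, which share the 6 libraries. Within the outer class they were 0.421 and -0.655 (n = 27), and within the constitutive class 0.36 and 0.0515 (n = 17), whereas over the 11798 tested genes with a protein-coding transcript they were 0.0765 and -0.155. CENPF and KNL1 had the longest transcripts of the members. Of the 416 tested genes of any function with at least 8000 bases and under 42% GC, 62.7% were higher, with a median log2 fold change of 0.31. With offsets for both properties, CENPF remained higher at 0.23 and KNL1 was lower at -0.15 (adjusted p = 0.0105). Of the other higher members, SKA1 kept its call under these offsets. CENPC (0.07), MIS12 (0.108), CENPE (-0.134) and NUF2 did not pass. The part of length and GC content in the rises was not tested further.

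**Figure D4:**
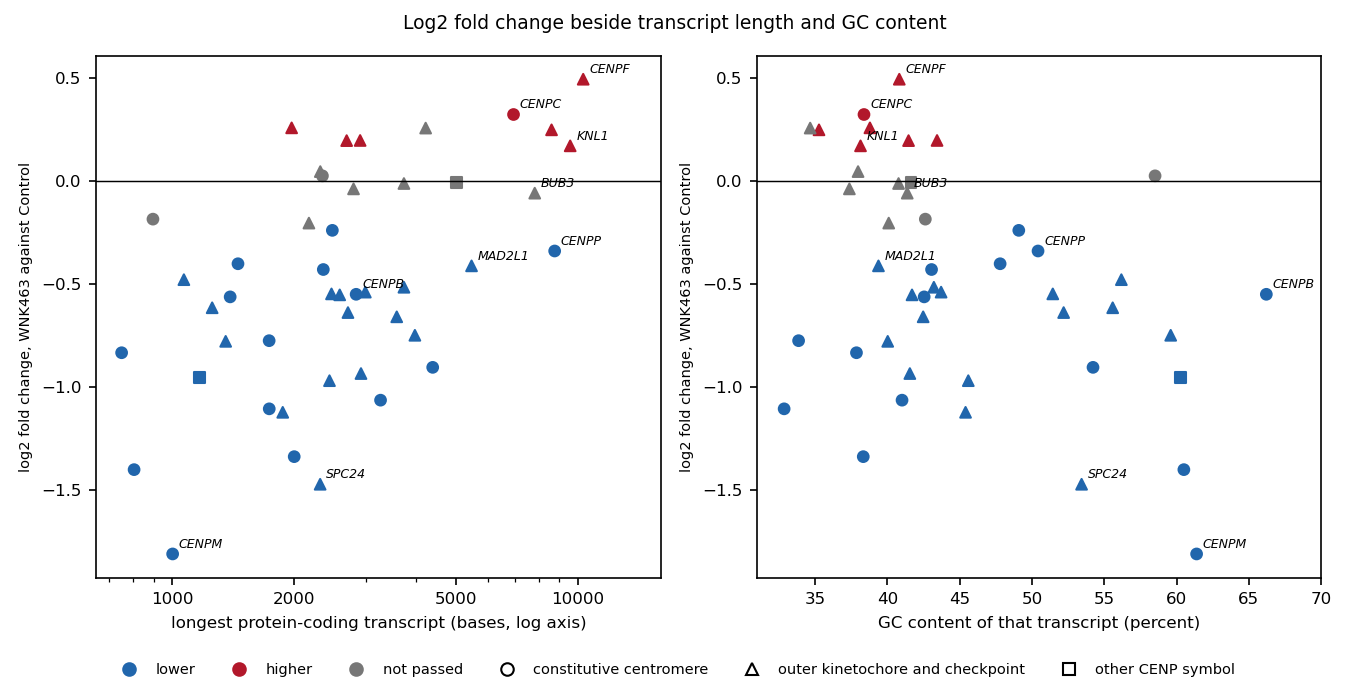
Log2 fold change (WNK463 against Control) of the 46 genes against the length of the longest protein-coding transcript (bases, log axis, left) and its GC content (percent, right), coloured by call and shaped by class. The higher genes lie between 35.3% and 43.4% GC, and the members with the most bases include CENPF and KNL1 above 0 and CENPP below it.

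Genes that work with the kinetochore mostly fell as well. Of 51 partner genes in 4 lists, 32 were lower (62.7%, against 35.3% of all genes tested) and 10 were higher (19.6%, against 35.5%). The other 9 did not pass, and the median log2 fold change was -0.35. Of the 8 genes for CENP-A deposition, 7 were lower (87.5%). OIP5, a subunit of the MIS18 complex that licenses deposition, fell most at -0.77, and HJURP, the CENP-A chaperone, fell at -0.75. Of the 10 genes of the RZZ complex, Spindly and checkpoint partners, 6 were lower and 1 was higher. TRIP13, the ATPase that remodels Mad2, went from 62.8 to 19.3 CPM on average, a log2 fold change of -1.70 (adjusted p = 3.74e-12), whereas NDEL1, a dynein regulator, rose at 0.23. Of the 20 genes of the anaphase-promoting complex and anaphase onset, the target of the checkpoint, 11 were lower and 5 were higher, from ANAPC11 at -1.002 to UBE2D1 at 1.07. Of the 13 kinetochore-microtubule and centromere regulators, 8 were lower (61.5%) and 3 were higher (23.1%). HASPIN, the kinase that marks histone H3 for the passenger complex, fell most at -1.01, and PPP2R5A, a regulatory subunit of a phosphatase, rose most at 0.44.

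The cell cycle markers moved with the members. All 12 S-phase markers were lower, against 35.3% of all genes tested, and 10 of them fell at least 2-fold (background 5.55%). The median log2 fold change of the 12 was -1.54, with MCM5 lowest at -2.38. Their summed level was 3491 to 3639 TPM in Control and 1339 to 1405 TPM in WNK463 samples. Of the 12 G2/M markers, 10 were lower (83.3%) and 1 was higher (8.33%, against 35.5% of all genes tested). Their median was -0.43, from FOXM1 at -0.78 to HMMR at 0.40. The summed level of the G2/M markers was 1471 to 1611 TPM in Control and 1287 to 1352 TPM in WNK463 samples. The medians of the constitutive class (-0.56) and the outer class (-0.48) lay nearer to that of the G2/M markers than to that of the S-phase markers. The part of cell cycle distribution in the kinetochore results was not tested. Among the myeloid markers, 4 were lower and 5 were higher, from MPO at -2.50 to PTPRC at 1.20.

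Promoters were available for 38 of the 46 members, as 250 bases before to 50 bases after the RefSeq start (GRCh38.p14). Where a gene had more than 1 listed promoter, only the first was searched. The cell cycle homology element TTTGAA, through which MuvB complexes act on G2/M genes, was found on either strand in 16 of the 38 (42.1%). It was found in 12.1% of 15843 promoters of protein-coding genes and 15.4% of 27305 promoters of all genes, 1 for each gene. CCAAT was found in 23 (60.5%), against 36.4% and 35.7%. At least 1 of the E2F words TTTCCCGC, TTTGGCGC, TTTCGCGC, TTTGCCGC, TTTCCGC, GGCGGGAA and GCGGGAA was found in 15 (39.5%), against 14.6% and 11.2%, where GCGGGAA lies within GGCGGGAA and can overlap TTTCCCGC on the other strand. TTTGAA was held by 11 of 26 lower members, 4 of 6 higher members and 1 of 6 that did not pass, and an E2F word by 9, 3 and 3. CCAAT was held by 18, 3 and 2. The motifs thus occurred in members of either direction, and a match is a description of letters, not of a bound site. The 100 bases before the start of 5 lower members are shown because TTTGAA lay close to the start in each, with the same motifs in capitals. CENPA is at chr2:26785956-26786055 (plus strand), BUB1B at chr15:40160969-40161068 (plus), CDCA8 at chr1:37692416-37692515 (plus), INCENP at chr11:62123911-62124010 (plus) and ZWINT at chr10:56361260-56361359 (minus). In the GENCODE annotation CENPA starts further upstream, at chr2:26764289, and that start was not searched.
CENPA: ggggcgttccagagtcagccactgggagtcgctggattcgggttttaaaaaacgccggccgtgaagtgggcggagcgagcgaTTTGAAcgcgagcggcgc
BUB1B: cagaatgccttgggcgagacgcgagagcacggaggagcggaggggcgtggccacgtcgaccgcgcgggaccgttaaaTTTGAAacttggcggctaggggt
CDCA8: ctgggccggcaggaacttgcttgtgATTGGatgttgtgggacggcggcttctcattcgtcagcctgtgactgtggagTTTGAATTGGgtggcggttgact
INCENP: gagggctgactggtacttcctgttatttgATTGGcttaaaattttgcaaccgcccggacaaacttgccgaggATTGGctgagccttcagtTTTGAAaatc
ZWINT: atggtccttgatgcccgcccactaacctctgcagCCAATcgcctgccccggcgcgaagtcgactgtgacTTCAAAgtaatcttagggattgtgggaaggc
TTTGAA began at -18 in CENPA, at -23 in BUB1B and CDCA8, at -10 in INCENP and, on the other strand, at -31 in ZWINT, counted from the start. In CDCA8 it overlapped a CCAAT motif on the other strand. These 5 were picked among lower members, so their direction says nothing of the motif, which also lay near the start of NDC80 and NUF2. In CENPF, TTTGAA lay 41 to 46 bases after the start and CCAAT occurred 4 times.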

How the data were processed

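The RNA-seq table of the 6 MV4-11 samples was used. It holds, as deposited by the authors, estimated counts per gene in whole numbers and TPM per gene for each sample. The authors' group means of TPM, log2 fold changes, p-values and false discovery rates in the same table were not used. The submitters' processing notes name fastp, Bowtie2, HISAT2, StringTie, RSEM, DESeq2 and edgeR and the build GRCh38, without versions or roles, and the strand setting was not given in the sources used here. In 62 cases a gene with a positive TPM had 0 counts.

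Counts were fitted with edgeR 4.0.16 (R 4.3.3; filterByExpr, TMM factors, quasi-likelihood F test, Benjamini-Hochberg over 11973 genes). TMM factors were 0.944 to 0.951 for Control and 1.05 to 1.06 for WNK463 samples, and the common biological coefficient of variation was 5.21%. Calls were made at an adjusted p below 0.05. With 3 samples a group, an exact permutation test of a single gene cannot go below 0.10. Replicate pairs of a group differed beyond sampling noise (chi-square per degree of freedom 2.64 to 7.27), so each sample counted once. In simulated data for this comparison edgeR recovered 50 of 50 genes at each log2 fold change of -2, -1, 1 and 2, with 18 false calls among 11853 genes. Only these genes were changed, equally many up and down. The simulation therefore does not cover smaller changes, or a comparison in which as large a share of genes is called as here.

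The members and lists were chosen with earlier results of these data known. CPM per sample was given for the 6 largest falls and 3 largest rises past the test in each class and for CENPA, BUB1B and AURKB. Every member was named with its log2 fold change, and so were the largest fall and rise of each partner or marker list, except for a rise that is not reported here. HJURP was added after its value was seen. ITGB3BP, also known as CENP-R, was counted among the CENP-A deposition partners. Gene positions and transcript properties came from GENCODE (GRCh38). By these, 17 members overlapped another protein-coding gene, 13 on the opposite and 4 on the same strand. Alternatives were DESeq2 1.42.0, total counts, other filters, a replicate block, limma 3.58.1 on TPM and leaving out each sample. Offsets for GC content and length were added after the data were seen.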

Additional observations from a re-analysis of the deposited data

How the results depend on the processing

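Of the outer kinetochore genes, the number higher was 6 with all samples, 1 by DESeq2, 2 with offsets for GC content and length (which called 19 lower), and 1 to 7 when each sample was left out in turn, with 1 without Control replicate 1. Under the offsets the constitutive class had 0 higher, and KNL1 and CENPE had log2 fold changes of -0.153 and -0.134. With total counts, the constitutive class had 2 higher, 3 lower by at least 2-fold and a median of -0.412, and the outer class had 1 lower by at least 2-fold and a median of -0.328. By limma on log2(TPM + 1) and log2(TPM + 0.1), the medians were -0.355 and -0.362 in the constitutive and -0.273 and -0.276 in the outer class. The median of all genes tested was 0.162 and 0.171 in these limma fits, against 0.0155 in the main fit. The constitutive class then had 3 genes lower by at least 2-fold with the larger pseudocount, and the outer class 1 with either. SKA2 was at 0.46 and 0.464, BUB3 at 0.12 with the larger pseudocount, and 16 partner genes were higher with either. Over all genes, limma called 2658 and 2646 lower, 266 and 366 of them at least 2-fold, and a minimum of 10 counts in every sample left 740 higher by at least 2-fold.

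Leaving out each sample in turn gave 14 to 15 lower and 1 higher in the constitutive class, with a median of -0.637 to -0.553, and 15 to 17 lower, 2 to 3 of them at least 2-fold, in the outer class, with a median of -0.499 to -0.456. The lowest constitutive median was without Control replicate 1. The groups share replicate numbers, but same-numbered samples did not deviate together (correlations 0.0188, -0.00706 and -0.048). With a replicate block, the constitutive class had 14 lower and 1 higher, and the outer class 15 lower and 7 higher, SGO2 being added. The numbers were therefore not taken to pair the samples. Of 644 values recomputed for single members, 568 kept their direction and side of the threshold, 31 lost the call, 16 gained one and 29 changed sign, 24 of these without passing the threshold in either fit. Besides the values above, the sign changed for SKA2 (0.112), BUB3 (0.0911), TTK (0.138) and CENPJ (0.144) with total counts, for TTK (0.003) and CENPJ (0.00927) with at least 10 counts in every sample, and for NSL1 (-0.121) and SGO2 (-0.0622) with the offsets. By limma it changed for NDC80 (0.0504 and 0.0529), TTK (0.255 and 0.261) and CENPJ (0.103 and 0.108). When samples were left out, CENPT ran from -0.0229 to 0.069, NSL1 from -0.0096 to 0.0892, TTK from -0.157 to 0.0725 and CENPJ from -0.12 to 0.0686. The causes of these changes were not tested. With 14915745 to 17411780 counts per sample, all 46 members passed the filter on low counts, and differences smaller than the spread of 3 samples a group could not be resolved.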
